A study of Mus musculus with 50 samples.

Results

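Members of the JAK-STAT pathway and its SOCS inhibitors, 10 genes in all, were examined in mammary gland (MG) tumors of mice that had been injected chronically with insulin-like molecules. They are Il6st, Jak1, Jak2, Stat3, Stat5a, Stat5b, Socs1, Socs2, Socs3 and Cish. The rows were chosen by gene name, and each name occurred once among the 37701 genes of the deposited expression table. All 50 tumors came from p53R270H/+WAPCre mice, in which the Wap promoter drives Cre in mammary epithelium and thereby switches on a mutant p53 allele. Injections under the skin began at an age of 8 weeks and were given every other day with vehicle, insulin, glargine, X10 or IGF1, until a tumor formed. Each of the 5 groups holds 10 tumors, taken at a size of 1 cm3 and 24 h after the last injection. The sample titles call the vehicle tumors Untreated, and tumors are named here by their titles (Untreated_194, IGF1_158). The doses were not analysed here. Insulin glargine has extra arginines at the end of the B chain and a glycine at the end of the A chain. X10 has an aspartic acid in place of a histidine in the B chain, and IGF1 is the natural ligand of the IGF1 receptor. The study's authors selected EMT-like tumors with a latency close to the median of their group, so the groups do not stand for all tumors of these mice.

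Cytokine and hormone receptors such as the prolactin, growth hormone and interleukin-6 receptors have no kinase of their own. They bind JAK kinases, which phosphorylate the receptor and then the STAT transcription factors, and STAT dimers switch on target genes in the nucleus. Among these targets are the SOCS genes and Cish, whose proteins bind receptor or kinase and shut the signal off. In the mammary gland STAT5 acts downstream of prolactin in milk production, whereas STAT3 is known for its part in involution after weaning.

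RNA was Poly-A selected and sequenced on the Ion Proton. The deposited unit is RPKM, that is reads per kilobase of a gene and scaled by sequencing depth. Its values are whole multiples of a step within each gene, from which the reads per tumor and the library sizes were recovered. The smallest library held 26.57 M reads and the largest 51.89 M (median 40.86 M). The summed RPKM of 8 epithelial markers was between 11.7 and 632 in the IGF1 tumors and between 11.9 and 5888 in the vehicle tumors, and Krt5 was at 0 in at least 1 tumor. The summed RPKM of 6 leukocyte markers was between 501 and 2092 over the 5 groups. Less RNA of a gene per cell and fewer cells of the type that expresses it cannot be told apart in such bulk samples.

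The gene length behind the RPKM values was not that of the main transcript. For 8 of the 10 genes it was equal to the median length of the annotated transcripts in GENCODE M21, short fragments included. The length used was 630 bases for Jak1, whose longest coding transcript has 4906 bases, and 749 bases for Stat3, whose longest coding transcript has 6042 bases. It was 490 bases against 2552 bases for Socs3. For Jak2, Stat5a, Stat5b and Cish the longest coding transcript was between 1.01 and 1.08 times the length used. The deposited levels of Stat3 and Jak1 are therefore 8.07 and 7.79 times higher than reads per kilobase of the longest coding transcript would give, and levels of different genes cannot be compared in the deposited unit. Comparisons of a gene between tumors are not touched by this.

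On the scale of reads per kilobase of the longest coding transcript, divided by the library size in M reads, the order of the levels was as follows. Socs3 was highest with 67.01 ± 33.3 (SD, n = 50 tumors), followed by Jak1 with 53.4 ± 37.2 and Stat3 with 38.4 ± 9.01. Il6st had 17.4 ± 6.11, Jak2 16.6 ± 4.26 and Socs2 14.5 ± 8.39. Stat5b with 8.81 ± 2.13, Cish with 6.75 ± 4.56, Stat5a with 5.98 ± 1.66 and Socs1 with 3.08 ± 1.05 were lowest. Neighbours in this order differed by less than the larger of their SDs, except Stat3 and Il6st and, at the low end, Stat5a and Socs1. In the deposited RPKM Jak1 came first with a mean of 416, before Socs3 with 349 and Stat3 with 309.6. The variation between tumors was uneven. The SD of log2(RPKM + 0.5) over the 50 tumors was 0.77 for Socs2, 0.74 for Cish and 0.69 for Socs3, and 84.5%, 83.2% and 80.5% of the 16733 genes tested had a smaller SD. For Stat3 it was 0.32, and 25.5% of the genes had a smaller SD.

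**Figure D1:**
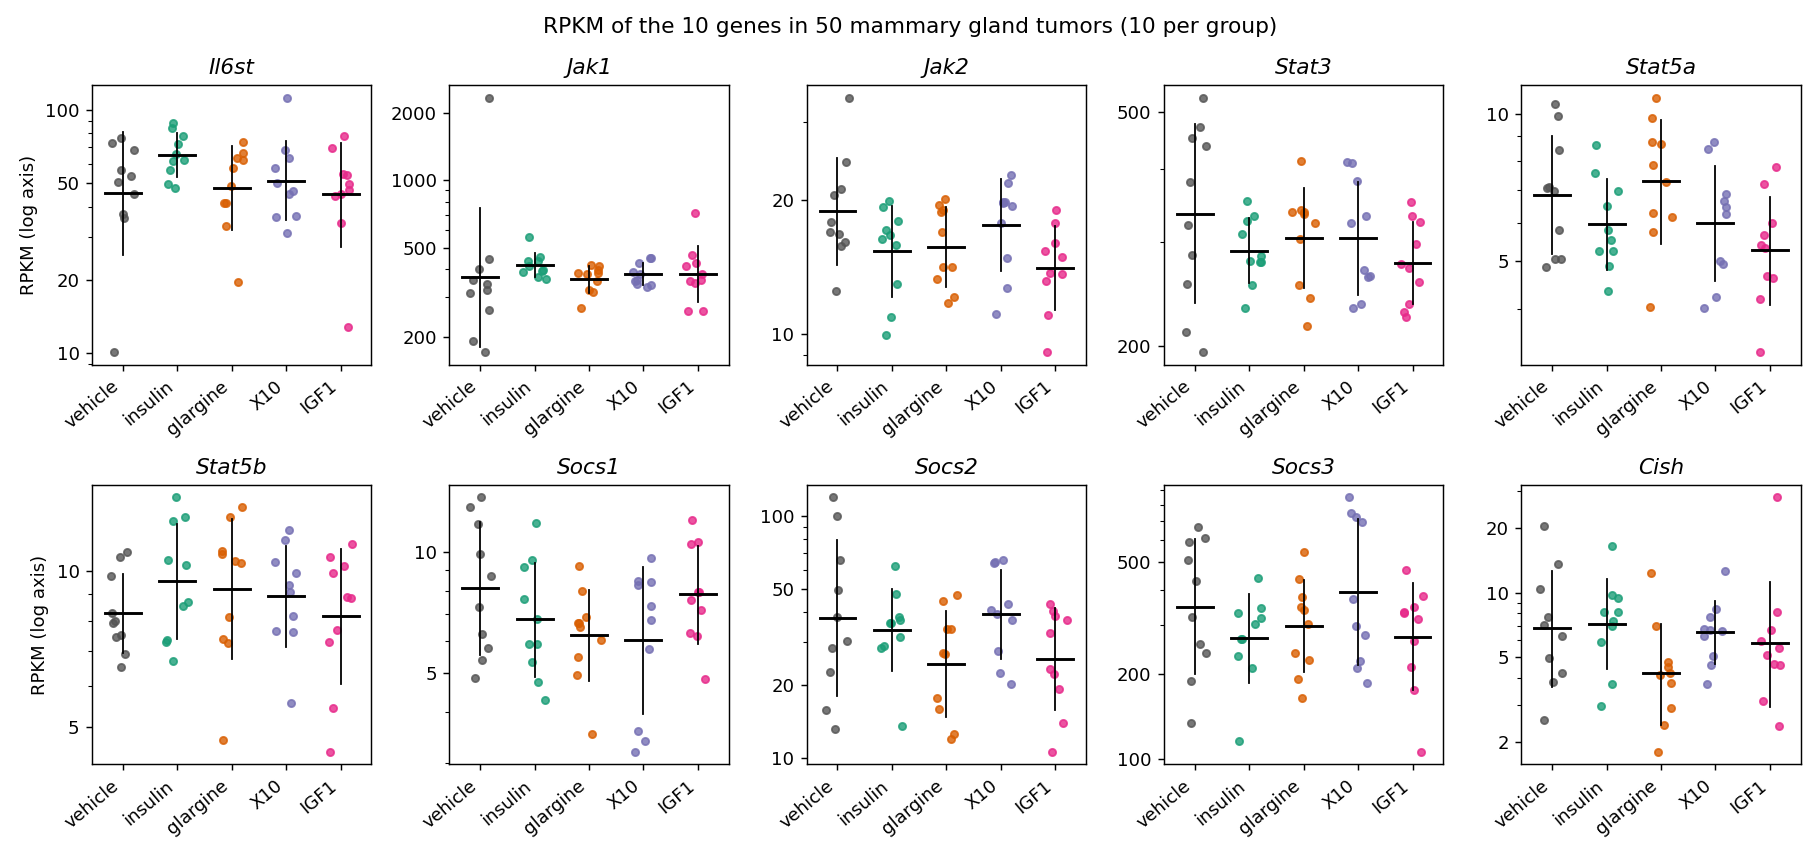
RPKM on a log axis of the 10 genes in each tumor, by treatment group. Points are tumors, horizontal bars the mean of log2(RPKM + 0.5) turned back to RPKM, and vertical lines that mean ± 1 SD. The groups overlap in every panel, and Jak1 in vehicle tumor Untreated_194 (2336 RPKM) lies far above all other tumors.

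None of the 10 genes was called in any comparison of treatments. Each gene was tested with limma on log2(RPKM + 0.5), with adjustment over the 16733 genes whose mean RPKM was 0.5 or more, and an adjusted p below 0.05 was required. Over all genes, 0% were called for insulin versus vehicle, 0% for glargine versus vehicle, 0.0657% for X10 versus vehicle and 0.00598% for IGF1 versus vehicle. For the 20 tumors under X10 or IGF1 versus the remaining 30, 0.155% were called. The smallest limma adjusted p of the 10 genes was 0.458 for insulin (Jak2), 0.789 for glargine (Cish), 0.46 for X10 (Socs1) and 0.39 for IGF1 (Jak2), each versus vehicle. A p that misses the threshold does not show that the groups act alike, so the intervals are given below. Nothing in the labels ties tumors of different groups to a shared animal, batch or day.

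Il6st encodes gp130, the receptor subunit shared by interleukin-6, LIF and oncostatin M. Its vehicle tumors were between 10.1 and 76.5 RPKM with a median of 52.04. The insulin tumors were between 47.7 and 88.4 with a median of 63.8. The glargine tumors were between 19.6 and 73.7 with a median of 53.3, the X10 tumors between 31.3 and 112 with a median of 48.3, and the IGF1 tumors between 12.9 and 78.1 with a median of 48.3. Below the lowest insulin tumor lay 4 vehicle, 4 glargine, 5 X10 and 5 IGF1 tumors, and the groups overlap. On the log2 scale insulin differed from vehicle by 0.52 ± 0.27 (SE), with a 95% interval from -0.02 to 1.06 and a limma adjusted p of 0.464.

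Jak2 is the kinase of the growth hormone and prolactin receptors. It was between 12.5 and 34.0 RPKM in the vehicle tumors, with a median of 17.4. The insulin tumors were between 9.96 and 19.9 with a median of 16.5, the glargine tumors between 11.8 and 20.1 with a median of 15.6, and the X10 tumors between 11.1 and 22.8 with a median of 19.6. The IGF1 tumors were between 9.13 and 19.0 with a median of 14.3. IGF1 differed from vehicle by -0.41 ± 0.15 (SE) on the log2 scale, with a 95% interval from -0.71 to -0.11 and an unadjusted p of 0.0077, and the limma adjusted p was 0.39. Among all genes 8.84% had an unadjusted p below 0.05 in that comparison, and 2 of the 10 genes did, Jak2 and Stat5a. With the mean z-score of the epithelial markers as a covariate, the Jak2 difference was -0.31 (limma adjusted p 0.95). X10 and IGF1 differed in Jak2 by 0.31 on the log2 scale, with a limma adjusted p of 0.414, and 11.7% of all genes had an unadjusted p below 0.05 there.

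Jak1 is the kinase that binds gp130 and the interferon receptors. The insulin tumors were between 361 and 558 RPKM with a median of 404, and the glargine tumors between 267 and 418 with a median of 383. The X10 tumors were between 335 and 448 with a median of 371, and the IGF1 tumors between 260.4 and 714 with a median of 368. The vehicle tumors were between 171 and 446 when Untreated_194 was left out, and Untreated_194 had 2336. Its mean in the vehicle group was 515 ± 646 RPKM (SD, n = 10) with that tumor and 312 ± 91.2 (SD, n = 9) without it. The differences from vehicle depended on this tumor. With it, insulin differed from vehicle by 0.18 ± 0.23 (SE) on the log2 scale. Without it the difference was 0.48 ± 0.14 (SE), with a 95% interval from 0.19 to 0.77, an unadjusted p of 0.00165 and a limma adjusted p of 0.198. The corresponding differences without that tumor were 0.35 for X10 (adjusted p 0.333), 0.35 for IGF1 (adjusted p 0.443) and 0.27 for glargine (adjusted p 0.731). No call resulted, and 1 tumor moved each value by more than its SE.

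**Figure D2:**
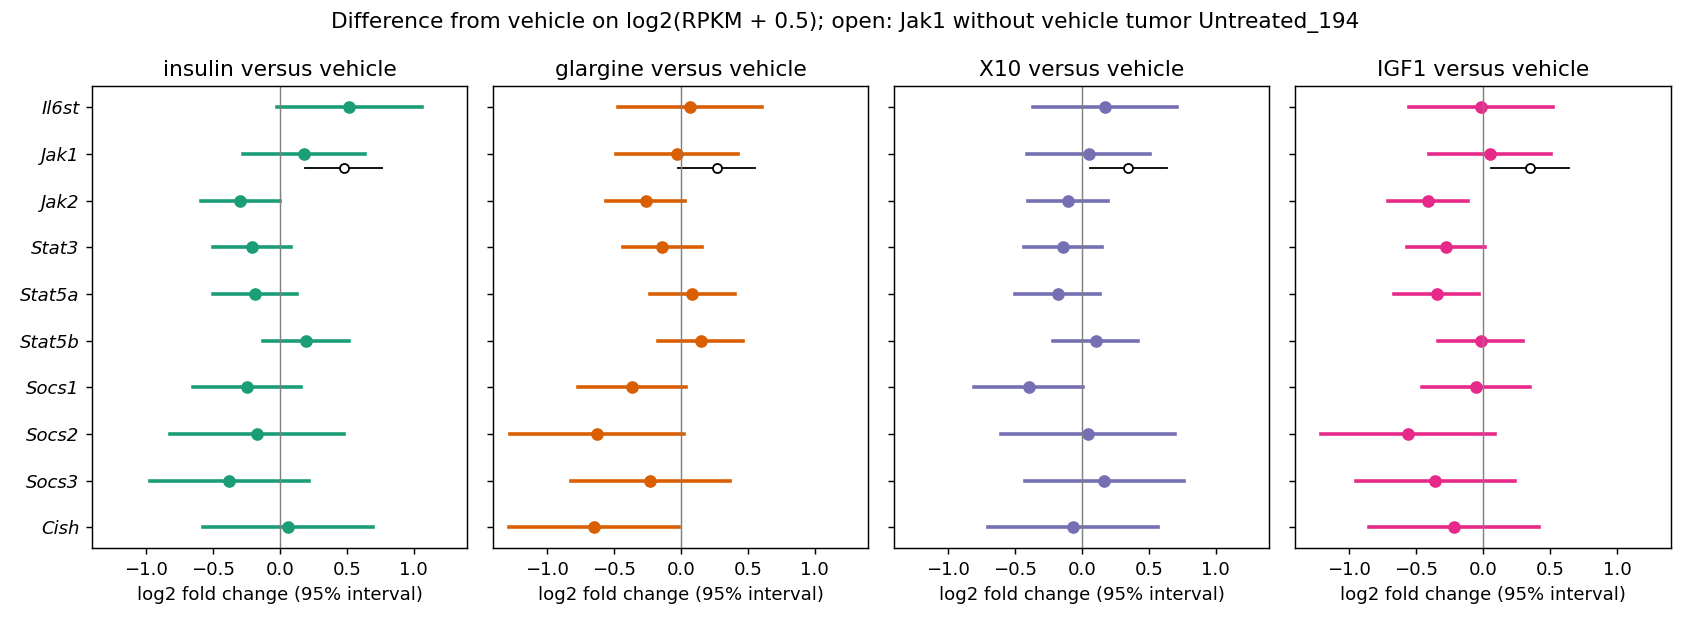
Log2 fold change versus vehicle of the 10 genes in the insulin, glargine, X10 and IGF1 tumors, on log2(RPKM + 0.5). Filled points and coloured lines are the limma estimates with their 95% intervals. Open points and black lines give Jak1 without vehicle tumor Untreated_194, where insulin moves from 0.18 to 0.48.

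Jak1 was not alone in vehicle tumor Untreated_194. Its gene lies on the minus strand of chromosome 4 at 101152367 to 101265282 (GRCm38). Of the 31 protein-coding genes of mean RPKM 1 or more from Caap1 to Oma1, 29 were more than 1 log2 unit above their median of the 50 tumors in this tumor. The 31 genes span 8.87 Mb, from 94500081 to 103371868, and these end points were chosen after the values had been seen. Their median was 2.58 log2 units, with values from 0.46 (Tek) to 3.32 (Cachd1), and 26 of the 31 exceeded every other tumor. Jak1 itself was 6.12 times the median of the other 49 tumors. Among its neighbours, Plaa had 706 RPKM against a median of 71.9 in the other tumors. Usp1, a deubiquitinase, had 243 against 30.4, and Jun, a subunit of the AP-1 transcription factor, had 364 against 57.9. Lepr, the leptin receptor that itself signals through JAK2, had 54.8 against 9.91, but reached 163 in another tumor. Outside these end points the values were near 0. The 25 genes from 20 Mb before Jak1 up to Caap1 had a median of -0.05 log2 units and none exceeded 1. The 123 genes from Oma1 to 20 Mb after Jak1 had a median of -0.01, and 4 exceeded 1. Over the genome, 4.07% of 12641 such genes exceeded 1 in this tumor. In no other tumor was the median of the 31 genes above 0.59 (tumor IGF1_158, the tumor with the next highest Jak1). In IGF1_158 the 123 genes from Oma1 to 20 Mb after Jak1 had a median of 0.63, so its values were not confined to the 31 genes. DNA of the tumors was not analysed here.

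**Figure D3:**
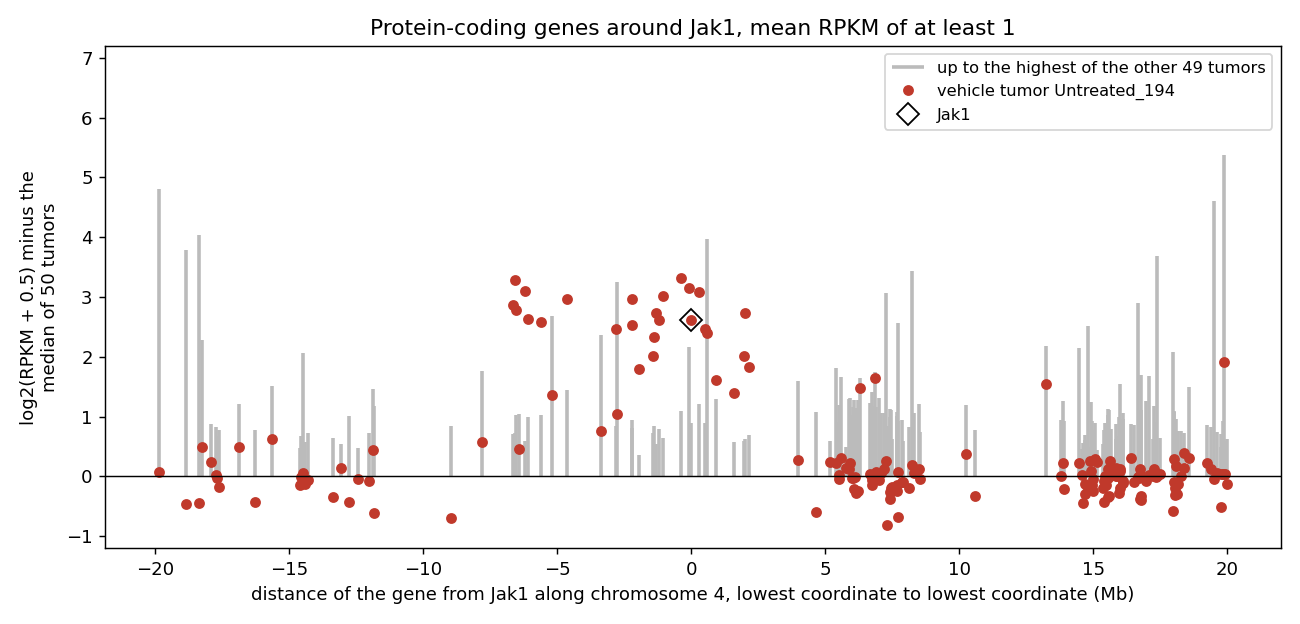
Protein-coding genes within 20 Mb of Jak1, by distance along chromosome 4 in Mb. Red points give log2(RPKM + 0.5) in vehicle tumor Untreated_194 minus the median of the 50 tumors, and grey lines run from 0 to the highest of the other 49 tumors. The points form a block around Jak1 (diamond, 2.61 log2 units) with a median of 2.58, while genes further away scatter about 0.

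The same check was made for the other 9 genes, with the protein-coding genes within 2 Mb. The median of the neighbours was at most 0.6 log2 units in any tumor for the other 9 genes, against 2.43 for Jak1 in vehicle tumor Untreated_194. In the tumor with the highest Cish (2.10 log2 units above its median) the neighbours were at 0.10. In the tumor with the highest Socs3 (1.43) they were at 0.02. For Socs2, at 1.80 in vehicle tumor Untreated_182, they were at 0.48.

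The 3 STAT genes lie next to each other on chromosome 11. Stat3, which is activated by the gp130 cytokines, is on the minus strand at 100885098 to 100939540, and Stat5a is on the plus strand at 100859351 to 100885169. Their 3′ ends overlap by 72 bases, and Stat5b follows at 100780731 to 100850724 on the minus strand. Stat3 was between 195.3 and 529 RPKM in the vehicle tumors (median 350.1) and between 232 and 353 in the insulin tumors (median 282). It was between 216 and 412 in the glargine tumors (median 329), between 232 and 411 in the X10 tumors (median 296) and between 224 and 352 in the IGF1 tumors (median 274). The vehicle tumors thus had both the lowest and the highest value. IGF1 differed from vehicle by -0.28 ± 0.14 (SE) on the log2 scale (limma adjusted p 0.596).

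Stat5a and Stat5b encode the closely related STAT5 proteins, of which STAT5A is the main form in the mammary gland. Stat5a had a mean of 7.06 ± 1.99 RPKM (SD, n = 10) in vehicle, 6.07 ± 1.33 in insulin, 7.53 ± 2.04 in glargine, 6.16 ± 1.63 in X10 and 5.41 ± 1.35 in IGF1 tumors. It was lowest in the IGF1 group, with tumors from 3.27 to 7.77, against 4.04 to 10.8 in the glargine group. IGF1 differed from vehicle by -0.35 ± 0.16 (SE) on the log2 scale, with an unadjusted p of 0.0327 and a limma adjusted p of 0.513. The median of the summed epithelial markers in the IGF1 tumors was 0.384 times that of vehicle, and with the epithelial score as a covariate the difference in Stat5a was -0.20 (limma adjusted p 0.95). IGF1 differed from glargine by -0.43 ± 0.16 (SE), with a 95% interval from -0.75 to -0.11 and a limma adjusted p of 0.665. The share of all genes with an unadjusted p below 0.05 was 6.98% there. For X10 and IGF1 versus the rest the difference was -0.23 ± 0.10 (SE), with an unadjusted p of 0.0286 and a limma adjusted p of 0.39, while 10.5% of all genes had an unadjusted p below 0.05. Stat5b had group means from 8.38 (vehicle) to 9.82 (insulin) RPKM, and no comparison reached an unadjusted p below 0.05. Of the 50-base stretches of the longest Stat5a transcript 15.8% also occur in Stat5b, and 11.8% the other way round. How many reads this touched was not tested.

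The SOCS genes and Cish are feedback inhibitors, and 2 short sequence patterns bear on them. STAT dimers are known to bind the pattern TTCNNNGAA, and interferon response factors bind repeats of GAAA. Promoter windows from RefSeq (GRCm38.p6), from 250 bases before to 50 bases after a start site, held 9 of the 10 genes. The pattern TTCNNNGAA reads the same on both strands, and 8.3% of 32851 windows hold it. Among the 9 genes it occurred in Socs3 and Cish. The pattern GAAA, any 2 bases and again GAAA, searched on both strands, occurred in 3.44% of the windows and among the 9 genes in Socs1 only. These patterns were chosen after the correlations had been seen, a match is a description of letters and not of binding, and positions are counted from the start site of the window. The matches are shown in capitals, 5′ to 3′ on the strand of the gene:
Socs3, bases -154 to -146, chr11:117969502-117969530, minus strand: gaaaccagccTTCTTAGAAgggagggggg
Cish, bases 0 to 19, chr9:107296649-107296678, plus strand: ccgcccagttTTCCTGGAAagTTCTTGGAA
Socs1, bases -83 to -68, chr16:10785597-10785626, minus strand: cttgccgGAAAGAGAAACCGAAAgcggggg
The Cish window has 2 matches in a row. The Socs1 window has 2 matches that overlap, as the middle GAAA is shared.

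Socs3 inhibits gp130 signalling and is a target of STAT3. It was between 134.6 and 669.8 RPKM in the vehicle tumors (median 376), between 115.9 and 439 in the insulin tumors (median 285) and between 165 and 544 in the glargine tumors (median 320.2). The X10 tumors were between 186.4 and 850.0 (median 334), and the IGF1 tumors between 106 and 471 (median 322). In the X10 group 6 tumors were between 186.4 and 372, and the other 4 between 697 and 850.0, above the highest vehicle tumor. In these 4 tumors Stat3 was between 332 and 411, against 232 to 324 in the other 6. The X10 tumors were split at this gap in Socs3 after the values had been seen. The mean of the X10 group was 458 ± 263 (SD, n = 10), against 394 ± 192 in vehicle. X10 differed from vehicle by 0.17 ± 0.30 (SE) on the log2 scale, with a 95% interval from -0.43 to 0.76 and a limma adjusted p of 0.871.

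Socs2 restrains growth hormone signalling. It was between 13.1 and 119 RPKM in the vehicle tumors (median 34.3), between 13.6 and 61.8 in the insulin tumors (median 36.0), and between 11.9 and 47.2 in the glargine tumors (median 26.9). The X10 tumors were between 20.2 and 65.5 (median 40.1) and the IGF1 tumors between 10.6 and 43.2 (median 28.1). Vehicle thus had the highest values, in Untreated_182 and Untreated_187. X10 differed from glargine by 0.67 on the log2 scale, with a limma adjusted p of 0.402, and 11.6% of all genes had an unadjusted p below 0.05 in that comparison, and Socs2 was the only one of the 10 that did. Part of the Socs2 transcript is shared, as 18.4% of its 50-base stretches also occur in the processed pseudogene Gm9847.

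Cish, a classical STAT5 target, had a median of 6.69 RPKM in vehicle (2.54 to 20.6), 7.73 in insulin (2.95 to 16.6), 4.17 in glargine (1.80 to 12.4), 6.67 in X10 (3.74 to 12.6) and 5.32 in IGF1 tumors (2.37 to 27.9). In the insulin, glargine, X10 and IGF1 groups 1 tumor each was far above the others. Glargine differed from insulin by -0.71 ± 0.32 (SE) on the log2 scale, with a 95% interval from -1.34 to -0.07, an unadjusted p of 0.0298 and a limma adjusted p of 0.99. It differed from vehicle by -0.65 ± 0.32 (SE), with a limma adjusted p of 0.789. Of all genes, 3.96% had an unadjusted p below 0.05 for glargine versus insulin and 6.23% for glargine versus vehicle. In both comparisons Cish was the only one of the 10 that did.

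Socs1, an inhibitor of interferon signalling, had group means from 6.39 ± 1.57 (SD, n = 10; glargine) to 8.65 ± 3.24 RPKM (vehicle). X10 differed from vehicle by -0.40 ± 0.20 (SE) on the log2 scale, with a 95% interval from -0.80 to 0.01 and a limma adjusted p of 0.46.

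The 4 compounds were also set against each other. In the 6 comparisons between them, 4 of the 60 tests of these genes had an unadjusted p below 0.05, against 8.81% of the tests of all genes, so the share was not above the background. The smallest limma adjusted p of the 10 genes was 0.402 there (Socs2, X10 versus glargine). Glargine and insulin, which differ by the added arginines and the glycine, differed by at most 0.71 on the log2 scale (Cish). For X10 and insulin none of the 10 genes had an unadjusted p below 0.05 (11.3% of all genes did), and their 95% intervals reached from -0.89 to 1.14. None did for IGF1 versus insulin (7.3% of all genes), insulin versus vehicle (11.1%) or X10 versus vehicle (11%). Of all genes 0.102% were called for X10 versus insulin, 1.78% for X10 versus glargine, 0.00598% for IGF1 versus insulin, and 0% for X10 versus IGF1, IGF1 versus glargine and glargine versus insulin. In the test for any difference between the 5 groups, 0.102% of all genes were called. None of the 10 genes had an unadjusted p below 0.05 there, as 13.1% of all genes did, and Jak2 was nearest with 0.0616.

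Correlations between the genes were computed across tumors. Of the 45 pairs, 13 were correlated at an adjusted p below 0.05 (Pearson r of log2(RPKM + 0.5) over 50 tumors, two-sided permutation test with 100000 resamples, adjusted over the 45 pairs), 11 positively and 2 negatively. These are 28.9% of the pairs, and the smallest r among them was 0.345 in size. Of all pairs of the 16733 tested genes 15.1% had an r of at least that size. The median r of the 45 pairs was 0.16. With Spearman's rho 12 pairs were called.

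**Figure D4:**
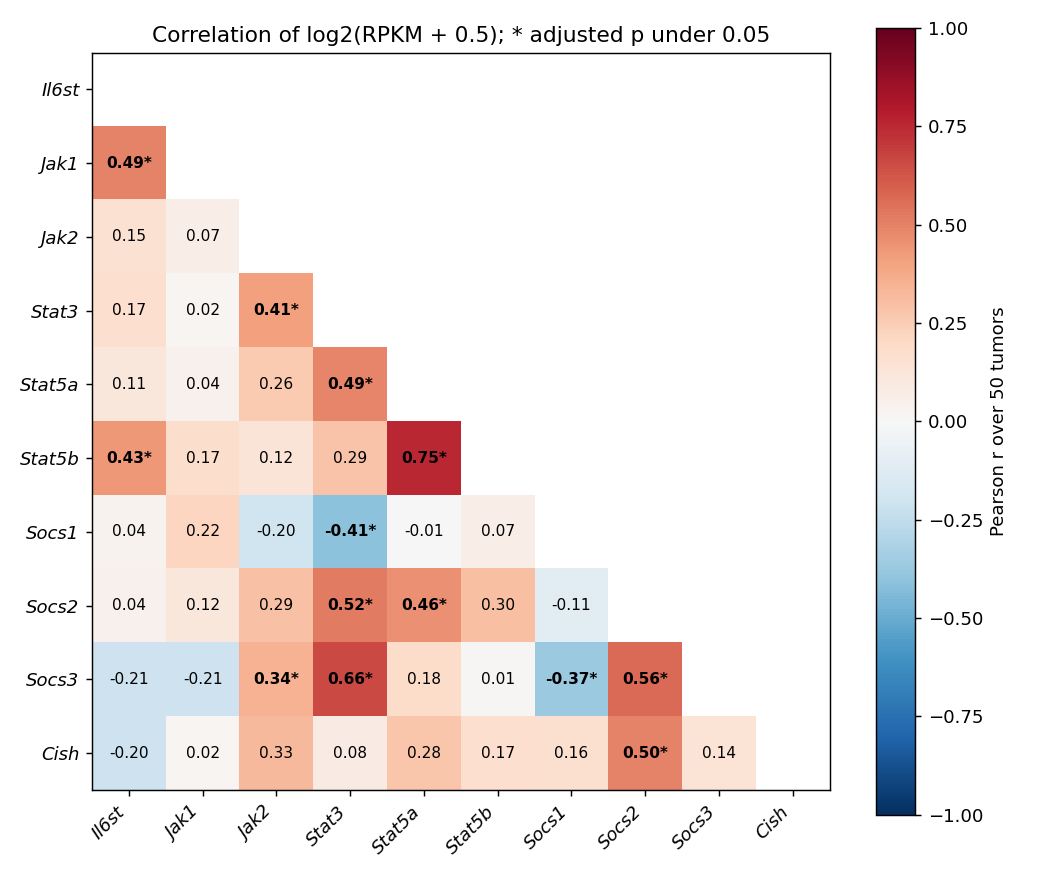
Pearson r of log2(RPKM + 0.5) over the 50 tumors for the 45 pairs of genes, from blue (-1) to red (1). Asterisks and bold type mark the 13 pairs with an adjusted p below 0.05, among which Stat5a and Stat5b (0.75) and Stat3 and Socs3 (0.66) are highest.

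Stat5a and Stat5b had the highest correlation, with r = 0.75 and rho = 0.74. The permutation p was 1e-05 for both, the smallest that the permutations can give, and the adjusted p was 0.000225. When the 2 tumors farthest from the median of Stat5a were left out, r was 0.70, and r centred within groups was 0.82. Within the groups r was between 0.56 (vehicle) and 0.97 (glargine). These 2 genes share the part of their sequence given above.

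Stat3 and its inhibitor Socs3 had r = 0.66 and rho = 0.65, with a permutation p of 1e-05 and an adjusted p of 0.000225 for both. The relation remained at r = 0.635 without the 2 tumors farthest from the median of Stat3, and at 0.66 when centred within groups. It was positive in each group, with r of 0.89 in vehicle, 0.78 in X10, 0.45 in insulin, 0.395 in IGF1 and 0.36 in glargine tumors. Socs2 was related to both, with r = 0.52 to Stat3 (rho 0.40, permutation p 0.00017, adjusted p 0.00191) and r = 0.56 to Socs3 (rho 0.52, permutation p 7e-05, adjusted p 0.00105). The relation of Socs2 with Stat3 was uneven, with r of 0.86 in vehicle but -0.08 in insulin and -0.11 in IGF1 tumors. Jak2 was related to Stat3 with r = 0.41 (rho 0.45, permutation p 0.00305, adjusted p 0.0125). It was related to Socs3 with r = 0.345 (rho 0.40, permutation p 0.0139, adjusted p 0.0481), and that r was 0.27 when centred within groups, with an adjusted p of 0.14. In the IGF1 tumors it was -0.43. Stat3 and Stat5a had r = 0.49 (rho 0.49, permutation p 0.00036, adjusted p 0.0027), with r from 0.88 in vehicle to -0.22 in IGF1 tumors.

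Socs1 went the other way. Its r was -0.41 with Stat3 (rho -0.41, permutation p 0.00267, adjusted p 0.0125) and -0.37 with Socs3 (rho -0.29, permutation p 0.00797, adjusted p 0.0299). By rho the latter did not pass, with an adjusted p of 0.108. With the leukocyte and epithelial marker scores held constant, the partial r was -0.27 with Stat3 and -0.22 with Socs3. Neither was negative in every group. The r with Stat3 was 0.16 in the insulin and 0.03 in the IGF1 tumors, and that with Socs3 was 0.23 in the insulin and 0.26 in the glargine tumors.

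Socs2 was further related to Cish with r = 0.50 (rho 0.47, permutation p 0.00022, adjusted p 0.00198) and to Stat5a with r = 0.46 (rho 0.40, permutation p 0.00091, adjusted p 0.00585). The latter call was lost with the leukocyte and epithelial scores held constant (partial r 0.35), and r was -0.26 in the insulin tumors. Socs2 and Cish had r of -0.20 in the X10 tumors and between 0.41 and 0.78 in the other groups. Cish had an r of 0.28 with Stat5a and 0.17 with Stat5b, and neither passed. Centred within groups, however, the r of Cish with Stat5a was 0.40 (permutation p 0.00412) and passed with an adjusted p of 0.0169. With the leukocyte and epithelial scores held constant the partial r of Cish with Stat5a was 0.099, and in the insulin tumors r was -0.03. Il6st was related to Jak1 with r = 0.49 (rho 0.44, permutation p 0.00278, adjusted p 0.0125; -0.08 in the insulin tumors) and to Stat5b with r = 0.43 (rho 0.43, permutation p 0.00161, adjusted p 0.00906). The call with Stat5b was lost with quantile normalization, where r was 0.33. Without vehicle tumor Untreated_194, the r of Il6st with Jak1 was 0.59 and that of Jak1 with Socs3 went from -0.21 to -0.43.

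Some of the genes moved with markers of other cell types. In all, 110 relations of the 10 genes with 9 marker scores, a score of ribosomal protein genes and the library size were computed and adjusted together. Socs3 was related to the neutrophil score (S100a8, S100a9, Csf3r, Cxcr2 and Retnlg) with r = 0.63 (rho 0.59, permutation p 1e-05, adjusted p 0.00055) and to the macrophage score with r = -0.48 (rho -0.39, permutation p 0.00049, adjusted p 0.0135). Stat3 was related to the epithelial score with r = 0.49 (rho 0.40, permutation p 0.0002, adjusted p 0.00733) and to the neutrophil score with r = 0.46 (rho 0.42, permutation p 0.00094, adjusted p 0.0207). Stat5a was related to the epithelial score with r = 0.42 (rho 0.42, permutation p 0.00214, adjusted p 0.0294), Socs1 to the T cell score with r = 0.43 (rho 0.42, permutation p 0.00183, adjusted p 0.0288) and Cish to the leukocyte score with r = 0.40 (rho 0.47, permutation p 0.00412, adjusted p 0.0478). Il6st was related to the endothelial score with r = 0.435 (rho 0.44, permutation p 0.0016, adjusted p 0.0288), Socs2 to the epithelial score with r = 0.40 (rho 0.35, permutation p 0.00435, adjusted p 0.0478) and Jak2 to the neutrophil score with r = 0.39 (rho 0.39, permutation p 0.0048, adjusted p 0.048). By rho Socs2 did not pass, with an adjusted p of 0.0802. There were 4 relations that passed by rho and not by r. Jak1 had a rho of 0.49 with the endothelial score (permutation p 0.00035, adjusted p 0.0128), with r = 0.36 and an adjusted p of 0.0668. Its rho was 0.42 with the T cell score (permutation p 0.00274, adjusted p 0.0305) and 0.39 with the leukocyte score (permutation p 0.00584, adjusted p 0.0459), where r was 0.34 and 0.24. Stat3 had a rho of -0.43 with the ribosomal protein genes (permutation p 0.00189, adjusted p 0.0305), with r = -0.39 and an adjusted p of 0.0503. Leaving out the 2 tumors farthest from each score's median, the r that passed were between 0.31 (Jak2) and 0.57 (Socs3 with neutrophils) in size. The part of these cell types in the correlations was tested for the leukocyte and epithelial scores alone: with both held constant, the partial r of Stat3 and Socs3 was 0.56 and that of Stat5a and Stat5b 0.76. Of the 13 pairs 9 kept their call, and Jak2 with Socs3, Stat3 with Socs1, Stat5a with Socs2 and Socs1 with Socs3 lost it. No relation with library size had an adjusted p below 0.24 by r or below 0.233 by rho.

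Il6st was further related to ribosomal protein genes. Its r with the mean score of 81 of them was -0.68 (rho -0.51, permutation p 1e-05, adjusted p 0.00055), and -0.56 without the 2 tumors farthest from the median of that score. The genes most like Il6st were Erbb2ip (r = 0.85), Rapgef6 (0.84) and Zkscan8 (0.84). Of the pathway's receptors Lifr, the partner of gp130 in the LIF receptor, had an r of 0.68 and Il6ra, its partner in the interleukin-6 receptor, 0.58. These and the following r were over 50 tumors, were searched among all genes whose mean RPKM was 1 or more, and are given without a test.

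Stat3 was most like Lrp5 (r = 0.73), Optn (0.70) and Foxq1 (0.70), and Foxq1 also came among the nearest genes of Socs2 (0.71). Socs3 was most like Gm5483 (0.82), Gcnt2 (0.79) and 2010005H15Rik (0.76), of which Gm5483 and 2010005H15Rik lie side by side on chromosome 16 (36184212 to 36188111 and 36221468 to 36257444). The cytokine genes Csf3, Il11 and Lif had r of 0.61, 0.59 and 0.58 with Socs3. Jak1 was most like Mysm1 (0.88), Mier1 (0.87) and Plaa (0.86), 3 of its neighbours on chromosome 4. Without vehicle tumor Untreated_194 its nearest genes were Fli1 (0.81), Inpp5b (0.80) and Pip4k2a (0.79). Among the genes most like Jak2 were Gpbp1l1 (0.62) and Malt1 (0.61). Stat5a was most like Col9a2 (0.66), Cpm (0.63) and Atp6v1c2 (0.63), and Stat5b like Zscan29 (0.72), Lrba (0.68) and Synrg (0.63).

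Socs1 was most like the interferon-inducible Gbp6 (0.69), followed by Gm12250 (0.68) and BC147527 (0.68). Stat2, a STAT of interferon signalling, had an r of 0.62 with Socs1. Cish was most like Car4 (0.80), Csf2 (0.75) and Clec7a (0.75). Csf2 encodes GM-CSF, a cytokine that signals through JAK2 and STAT5. Its receptor subunit Csf2rb had an r of 0.52 with Cish, the kinase gene Jak3 had 0.55, and the growth hormone receptor gene Ghr had -0.66. In tumor IGF1_158, which had the highest Cish value of the 50 tumors (27.9 RPKM), Csf2 was at 0.5 RPKM, against 11.9 in insulin_18, the highest of the 50. Socs2 was most like Gm9847 (0.90), the pseudogene that shares its sequence, and then Hr (0.71).

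**Figure D5:**
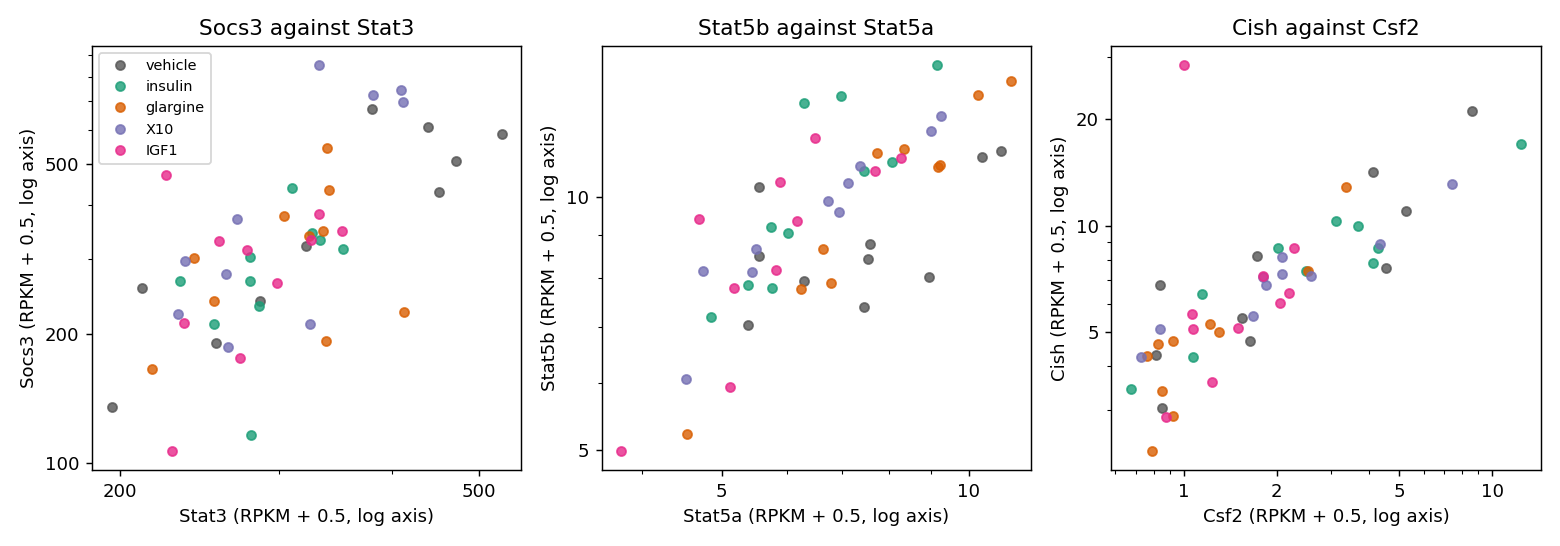
Socs3 against Stat3, Stat5b against Stat5a, and Cish against Csf2 in the 50 tumors, as RPKM + 0.5 on log axes, coloured by group. Each pair rises together (r = 0.66, 0.75 and 0.75), and tumor IGF1_158 lies above the others in the last panel.

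The rest of the pathway was described from fixed lists. None of the tested members of any list was called in a comparison with vehicle or for X10 and IGF1 versus the rest. Of 21 ligands 11 were tested. Tslp was 1.79 ± 1.36 RPKM (SD, n = 10) in vehicle and 4.08 ± 2.58 in IGF1 tumors, with a limma adjusted p of 0.374. Csf3, the granulocyte growth factor, was 13.9 ± 23.1 in vehicle and 3.05 ± 4.797 in insulin tumors (limma adjusted p 0.404). Of 23 receptors 22 were tested. Il6ra was 6.09 ± 1.52 RPKM in vehicle and 10.1 ± 3.78 in insulin tumors, with a log2 difference of 0.64 ± 0.21 (SE) and a limma adjusted p of 0.304. Prlr, the prolactin receptor, was 3.35 ± 2.97 in vehicle, 6.03 ± 4.62 in glargine and 1.33 ± 1.505 in IGF1 tumors (limma adjusted p for IGF1 versus vehicle 0.516). All 6 other JAKs and STATs were tested, and Tyk2 in insulin tumors had the smallest limma adjusted p, 0.396. All 13 other inhibitors were tested. Pias3 was 47.2 ± 11.6 in vehicle, 61.4 ± 14.9 in insulin and 58.7 ± 13.4 in IGF1 tumors, with a limma adjusted p of 0.336 for insulin. Among the genes with the smallest p in the other comparisons were Lep, Il2, Crlf2, Il11ra1, Stat2, Pias4, Socs6 and Ptpn2, with limma adjusted p from 0.354 (Il2, X10) to 0.789 (Lep, Crlf2 and Pias4, glargine).

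No STAT3 target gene was called. In the insulin tumors 22 of 23 had a log2 difference below 0 and 7 of them an unadjusted p below 0.05, against 5.17% of all genes that were lower at that p. The median was -0.31, against 0.03 over all genes. Hp, the acute-phase protein haptoglobin, was 134 ± 137 RPKM (SD, n = 10) in vehicle and 27.1 ± 28.1 in insulin tumors (limma adjusted p 0.342). The other 6 were Lcn2, Timp1, Ctsl, Cebpd, Myc and Tnfrsf1a. In the IGF1 tumors 17 of 23 were below 0, 4 of them at an unadjusted p below 0.05 (background 4.34%). The median was -0.22, against 0.015 over all genes. Lcn2, which encodes lipocalin-2 and is also on the STAT5 target list, was 388 ± 623 RPKM in vehicle and 11.1 ± 16.8 in IGF1 tumors, with a log2 difference of -3.55 ± 1.01 (SE) and a limma adjusted p of 0.277. For X10 and IGF1 versus the rest 13 of 23 were below 0 (median -0.08, against -0.02 over all genes). At an unadjusted p below 0.05, 3 were lower and 1 higher, against 10.5% of all genes in either direction. Igfbp5 was lowest in p there, with -1.43 ± 0.44 (SE) and a limma adjusted p of 0.157. Its mean was 17.5 RPKM in both groups (SD 18.3 in X10 and 18.1 in IGF1, n = 10 each), against 52.6 ± 72.1 in vehicle, 24.6 ± 15.6 in insulin and 205 ± 355 in glargine tumors, so that the glargine tumors were highest and had the widest spread. In the glargine tumors 15 of 23 were below 0 (median -0.14, against 0.02 over all genes), with the smallest p for Myc (limma adjusted p 0.789). At an unadjusted p below 0.05, 3 were lower and 0 higher, against 6.23% of all genes in either direction. In the X10 tumors 19 of 23 were below 0 (median -0.23, against -0.03 over all genes). At an unadjusted p below 0.05, 2 were lower and 1 higher, against 11% of all genes in either direction. Each comparison with vehicle used the same 10 vehicle tumors. In X10, Tnfrsf1a differed by -0.35 ± 0.12 (SE), with a limma adjusted p of 0.256. The summed RPKM of the 5 neutrophil markers, all tested, was between 34.9 and 2709 in vehicle (median 248), between 20.9 and 290.5 in insulin (median 101.1) and between 28.7 and 472 in IGF1 tumors (median 85.2), and Retnlg was at 0 in at least 1 tumor. In the glargine tumors the sum was between 18.0 and 331 (median 166), and in the X10 tumors between 18.8 and 905.5 (median 152). The part of the neutrophil markers in the values of the STAT3 targets was not tested. A few STAT3 targets were higher at an unadjusted p below 0.05. These were Hif1a in X10 (log2 difference 0.57, limma adjusted p 0.382, background 2.75%), Ctsb in IGF1 (0.25, limma adjusted p 0.562, background 4.49%) and Mcl1 for X10 and IGF1 versus the rest (0.19, limma adjusted p 0.304, background 2.97%).

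No STAT5 target gene was called either. In the glargine tumors all 16 were tested, 11 were above 0 and 7 had an unadjusted p below 0.05 in that direction, against 3.31% of all genes. The median log2 difference was 0.81, against 0.02 over all genes. The 7 were the milk protein genes Csn1s1, Csn2, Csn1s2a, Csn3, Lalba and Wap, and Elf5, a transcription factor of alveolar cells. Csn1s1 was 8.39 ± 13.3 RPKM (SD, n = 10) in vehicle and 65.9 ± 72.9 in glargine tumors. Lalba, with the smallest p, was 0.969 ± 1.25 in vehicle and 7.25 ± 9.39 in glargine tumors, a log2 difference of 1.81 ± 0.52 (SE) with a limma adjusted p of 0.754. In both genes and both groups the SD was larger than the mean. Cish, in contrast, had its lowest group median in the glargine tumors. The summed RPKM of the 6 adipocyte markers, of which 5 were tested, was between 20.8 and 511 in glargine and between 18.9 and 249 in vehicle tumors, with a median 3.55 times that of vehicle, and Retn and Plin1 were at 0 in at least 1 tumor. Its part in the milk protein values was not tested. In the X10 tumors 11 of the 16 STAT5 targets were above 0, with the smallest p for Csn3 (limma adjusted p 0.572), and for X10 and IGF1 versus the rest 12 were below 0, with a median of -0.28 and the smallest p for Igf1 (limma adjusted p 0.288).

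Across the 50 tumors the STAT3 targets went with Stat3 and Socs3. Of 23 target genes 21 had a positive r with Stat3 and 21 with Socs3, with medians of 0.24 and 0.25. Over all genes 44.6% were positive with Stat3 and 34.6% with Socs3, with medians of -0.04 and -0.10. The highest r with Stat3 were those of Junb (0.60), Cebpb (0.55) and Lcn2 (0.53), and the lowest those of Timp1 (-0.34), Ctsb (-0.20) and Saa3 (0.02). With Socs3 the highest were Ier3 (0.76), Junb (0.71) and Cebpb (0.64), and the lowest Igfbp5 (-0.15), Timp1 (-0.13) and Myc (0.04). Stat3 and Socs3 were not alone in this. With Jak2 and with Socs2 19 of the 23 were positive, against 47.7% and 45.2% of all genes. With Socs1 3 of the 23 were positive, against 66.6% of all genes, and with Il6st 3, against 55.3% of all genes.

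Of the STAT5 targets 15 had a mean RPKM of at least 1. With Stat5a 12 were positive, against 57.1% of all genes, with a median r of 0.25 against 0.03 over all genes. The highest were Lcn2 (0.53), Elf5 (0.52) and Csn3 (0.49), and the lowest Tnfsf11 (-0.17), Ccnd1 (-0.09) and Osm (-0.07). With Stat5b 13 of the 15 were positive, against 60.6% of all genes, with a median r of 0.245. With Cish 4 of 15 were positive, with a median of -0.11, against 48.1% of all genes and a median of -0.01. The highest r with Cish among the STAT5 targets were those of Osm (0.49), Pim2 (0.45) and Ccnd2 (0.13), and the lowest those of Tnfsf11 (-0.44), Csn1s2a (-0.31) and Igf1 (-0.30). Among the STAT3 targets Pim1, a kinase gene that STAT5 also induces, had an r of 0.71 with Cish.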

How the data were processed

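RNA of 50 mammary gland tumors was Poly-A selected, made into libraries with an Ion Total RNA-Seq kit and sequenced on the Ion Proton. Per the submitters' processing notes and the study's methods, the authors aligned reads to GRCm38 with TopHat2 2.0.10 and Bowtie2, counted them per gene with HTSeq 0.6.1 and deposited RPKM, reads divided by gene length and sequencing depth. For its RPKM table the paper names DEXSeq, in connection with exon expression. The processing notes also list DESeq2 1.2.10, which was not used here.

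Within a gene the RPKM values are whole multiples of 1 read scaled to a library of 100 M reads. Lengths, reads and library sizes were recovered from these steps for 16348 of the 16733 tested genes, and in every tumor 98.76% or more of the low values were whole multiples. On simulated data, 98.8% of lengths were exact for genes of mean RPKM 0.5 or more.

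The test was limma 3.58.1 (R 4.3.3) with an intensity trend, fitted to log2(RPKM + 0.5) of the 5 groups together, with Benjamini-Hochberg adjustment over genes whose mean RPKM was 0.5 or more. Fold changes on this scale understate those of low genes. On simulated counts with 200 genes changed between X10 and vehicle among 16733, limma called 51% at a log2 fold of 1 and 99% at a log2 fold of 2, beside 9 false calls. Correlations used permutation tests in Python 3.11.15 with numpy 2.4.6. Scores are mean z-scores of marker genes. Positions are from GENCODE M21, on GRCm38.

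The genes and lists were chosen with earlier results of these data known. The rule for named genes covers all 10 genes in every comparison, and those not named beside one are given by counts and ranges. Of each list the gene with the smallest p in each comparison with vehicle and for X10 and IGF1 versus the rest is named, together with the 3 genes most like each member and the 3 highest and lowest targets for Stat3, Socs3, Stat5a and Cish. A few genes that this rule picks are not reported here. Further genes named (Jak1's neighbours, Hif1a, Ctsb and Mcl1 beside their p, cytokines, receptors and STATs with their r) were chosen after their values were seen. Tumors titled untreated were taken as the vehicle group. The labels do not say that each tumor came from a separate animal, so p-values measure only the spread between these tumors. Alternatives were other pseudocounts, filters, scalings and covariates, limma voom on the recovered reads, and fits with fewer groups. Leaving out pseudogenes or vehicle tumor Untreated_194 was added after seeing the data.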

Additional observations from a re-analysis of the deposited data

Results flagged for a closer look

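In 8 of the 50 sets of 10 tumors (10 genes in 5 groups) the highest tumor lay far from the others, with a gap to the next above Dixon's 95% critical value, as a share of the range. That is 16% of the sets, and by the same rule 16.2% of the sets of all tested genes had such a tumor, so the share was near that of all genes. In normally distributed values chance gives about 1 in 20. For Jak1 these were vehicle tumor Untreated_194 with 2336 RPKM (next 446), tumor insulin_8 with 558 (next 454) and tumor IGF1_158 with 714.5 (next 463). For Cish they were tumor insulin_18 with 16.55 RPKM, glargine_70 with 12.37, X10_95 with 12.64 and tumor IGF1_158 with 27.94, so that 4 of its 5 groups were concerned. For Il6st it was tumor X10_116 with 112.2 RPKM (next 68.6). In RPKM no low tumor was as far from its group. On log2(RPKM + 0.5), checked after seeing the data, 6 sets had such a tumor. In 3 of them it was the highest (Jak1 in Untreated_194 and insulin_8, Cish in IGF1_158) and in 3 the lowest. The low ones were Il6st in Untreated_174 with 10.1 RPKM and in IGF1_160 with 12.9, and Socs2 in insulin_15 with 13.6.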

How the results depend on the processing

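The count of 0 called genes among the 10 remained at 0 in each comparison under every alternative run. These were 14, or 13 for X10 and IGF1 versus the rest and for any difference between the 5 groups, where no group can be left out of the fit. Over them the smallest limma adjusted p was 0.198 (Jak1, insulin versus vehicle, without vehicle tumor Untreated_194). The 8 single differences with an unadjusted p below 0.05 kept their direction under each of their alternatives, with adjusted p of 0.267 or more. Of these, Stat5a in IGF1 versus vehicle moved by over 1.5 times, from -0.35 to -0.20 with the epithelial score as a covariate (adjusted p 0.95). Over all 110 differences of the 10 genes, 26 changed sign under at least 1 alternative. All 13 correlated pairs were called with the other pseudocounts and upper quartile scaling, and without vehicle tumor Untreated_194, when Jak1 and Socs3 made 14. Centred within groups there were 13, of which 12 were shared (Jak2 and Socs3 dropped out, Stat5a and Cish came in). With quantile normalization there were 12, of which 11 were shared (Stat5b and Il6st, and Socs1 and Socs3, dropped out), and with the leukocyte and epithelial scores held constant 10, of which 9 were shared. The latter lost Jak2 and Socs3, Stat3 and Socs1, Stat5a and Socs2, and Socs1 and Socs3. No paired analysis was possible because the numbers in the tumor titles name single tumors and no number occurs in more than 1 group. At the simulated depth and spread, limma recovered 51% of genes changed by 1 log2 unit, so changes of that size or below can be missed.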

Other observations

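The vehicle group had the largest SD of log2(RPKM + 0.5) of the 5 groups for 5 of the 10 genes (Il6st, Jak1, Jak2, Stat3 and Socs2). In 2 of these genes that order rested on 1 tumor. Without Untreated_174 the SD of Il6st went from 0.83 to 0.39, below 0.70 in the IGF1 group, and without Untreated_195 that of Jak2 went from 0.39 to 0.27, below 0.33 in the X10 group. Without Untreated_194 the SD of Jak1 went from 1.04 to 0.47, against 0.42 in the IGF1 group. Over all tested genes the vehicle group had the largest SD for 39.7%, IGF1 for 29.6% and insulin for 5.42%. The insulin group had the largest SD for 0 of the 10 genes. In vehicle tumor Untreated_174, which had the lowest Il6st (10.1 RPKM), the protein-coding genes within 2 Mb of Il6st had a median of -0.80 log2 units, and those around Jak1 and Jak2 medians of -0.90 and -0.69. In each of these 3 neighbourhoods it was the lowest of the 50 tumors. A value over all genes of this tumor is not given here, and whether the lower values were local was not tested.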
